A study of Danio rerio with 6 samples.

Results

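The 10 apolipoprotein genes described here are apoa1a, apoa1b, apoa2, apoa4a, apoa4b.1, apoa4b.2, apoba, apobb.1, apoea and apoeb. They were taken by symbol from the 21392 genes of a zebrafish translation efficiency table, and all 10 were present. Mycn mutant embryos, whose allele and zygosity the labels do not give, were set against AB-strain wild-type embryos, both collected at 72 h after fertilization. Each genotype has 2 Ribo-seq libraries and 1 RNA-seq library, from whole embryos dissociated to single cells. Ribo-seq sequences the mRNA fragments that ribosomes shield from nuclease. Translation efficiency is the FPKM (fragments scaled to gene length and library size) of a gene's footprints divided by the FPKM of its mRNA. Gene length cancels only where both FPKM values used the same length. The sources do not say which part of a gene was counted, and comparisons of level between different genes carry that limit.

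Apolipoproteins are the protein part of the particles that carry fat and cholesterol through blood. Apolipoprotein B is the large scaffold of the particles that intestine, liver and, in fish embryos, the yolk syncytial layer secrete, and it stays with its particle for life. The smaller A, C and E types exchange between particles, where they build high-density lipoprotein, steer lipases or bind receptors of the low-density lipoprotein receptor family. A larval zebrafish at this age still lives on yolk lipid, which the yolk syncytial layer packs into lipoproteins, while the intestine and liver take up that work.

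A gene's footprints and mRNA were not available separately, so a higher ratio can stand for more footprints or for less mRNA. In whole embryos a change within a cell and a shift of the mRNA between intestine, liver and yolk syncytial layer cannot be told apart. The depth behind each ratio is unknown. Because each genotype had 1 RNA-seq sample, the spread between the 2 Ribo-seq libraries holds no replicate error of the mRNA, and neither do the p-values built on it. The labels do not say whether the 2 libraries came from separate clutches. The median over all genes was 0.752 and 0.736 in the mutant libraries and 0.746 and 0.734 in the wild-type libraries. For mycn itself the ratio was 0.429 and 0.342 in mutants, against 0.446 and 0.302 in wild type, and the groups overlapped. A ratio does not check how much of the transcript was present.

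In mutants, the translation efficiency of apoa2 was 1.71-fold that of wild type and that of apoa4b.2 was 0.564-fold, each well beyond the difference between replicates. Smaller differences outside the replicate range were seen for apoa1b, apoea and apoa4b.1, which were higher in mutants, and for apobb.1 and apoa4a, which were lower. The values of apoba and apoeb lay just below those of wild type, and those of apoa1a overlapped. Both mutant values lay above both wild-type values for 4 genes, a pattern of 23.1% of the 17601 genes above 0 in all 4 libraries. They lay below them for 5 genes, a pattern of 21.6%. In all, 9 of the 10 genes did not overlap, against 44.8% of the 17601. Of these genes, 2626 carry 4 values that are each unique in their library to 9 digits, and among those 22.7% were above, 29.1% below and 51.9% without overlap in either direction. A repeated value can mark a coarse ratio of small whole numbers, and 8 of the 10 apolipoprotein genes had none. Close replicates also make non-overlap more likely, so these shares are not for genes of like spread. The larger replicate difference of a gene had a median of 0.061 on the log2 scale over the 10 genes. It was 0.49 over all tested genes and 0.22 over the 2626.

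**Figure D1:**
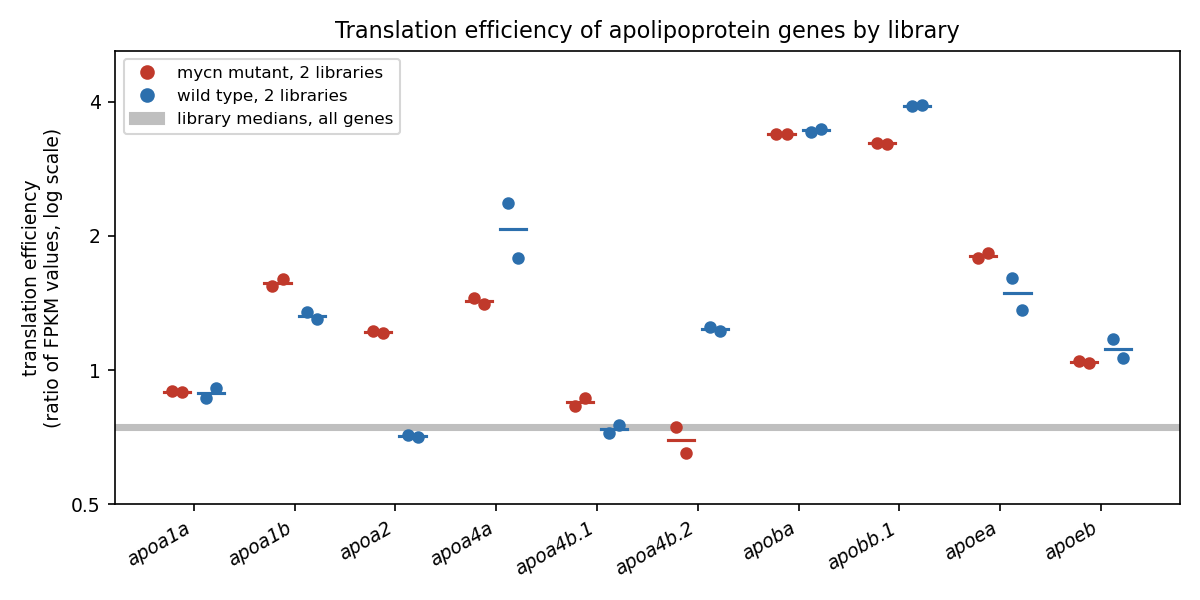
Translation efficiency (ratio of FPKM values, log scale) of each apolipoprotein gene in the 2 mycn mutant libraries (red) and the 2 wild-type libraries (blue); short lines are means and the grey band spans the medians of all genes in the 4 libraries. Apoa2 sits at 1.22 and 1.21 in mutants, against 0.716 and 0.706 in wild type, while apoa4b.2 sits at 0.744 and 0.652, against 1.25 and 1.22.

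No apolipoprotein gene passed the test when all 17601 genes were fitted together (limma on log2(ratio + 0.1), Benjamini-Hochberg adjusted p under 0.05). Neither did any other gene, which is 0% called, although 2023 genes (11.5%) had an unadjusted p under 0.05, apoa2 and apoa4b.2 among them. This fit pools the spread of all genes, most of which have 1 or more repeated values. The SE it gave the apolipoprotein genes ran from 0.182 to 0.234. The larger of the 2 differences between replicates of a genotype had a median of 0.061 on the log2 scale over the 10 genes. It was 0.49 over all tested genes and 0.22 over the 2626 genes without repeated values. When these 2626 genes were fitted alone, 36 (1.37%) passed, and apoa2 was the only 1 of the 8 apolipoprotein genes in that fit to do so, with a call that other settings ended. An unadjusted p under 0.05 was reached by 4 of the 8 and by 19.5% of the 2626.

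**Figure D2:**
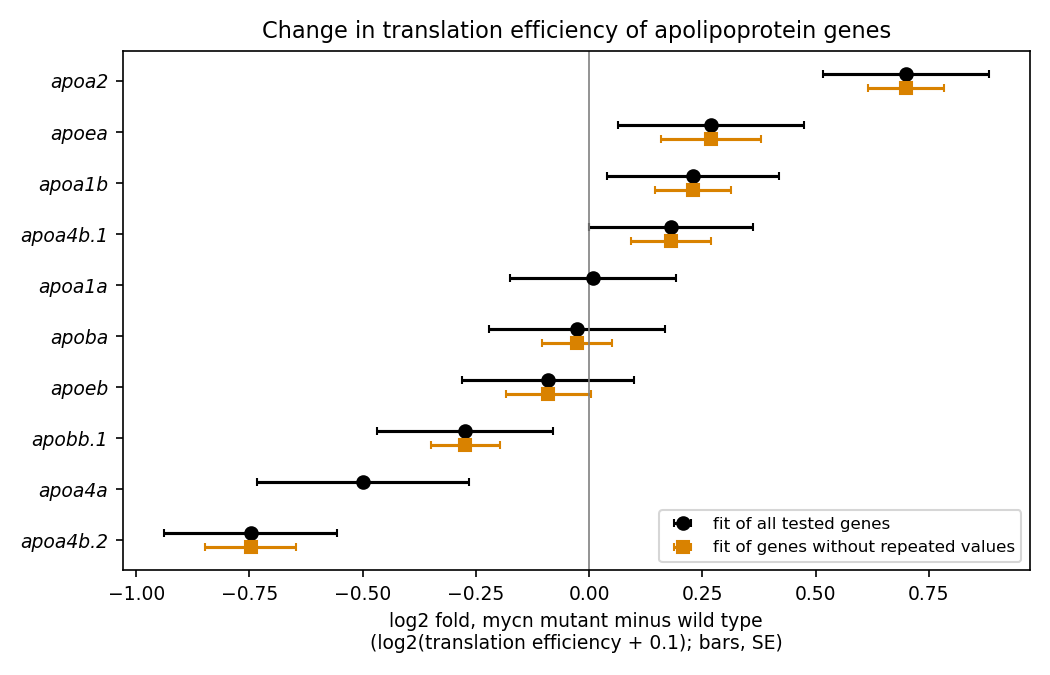
Log2 fold (mycn mutant minus wild type, on the log2(ratio + 0.1) scale) of each gene, with its SE, in the limma fit of all 17601 genes (black circles) and in that of the 2626 genes without repeated values (orange squares, 8 genes). The estimates are the same in both fits, 0.70 for apoa2 and -0.75 for apoa4b.2 at the ends, and the SE is smaller in the second.

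Apoba and apobb.1, which encode apolipoprotein B, stood highest of the 10. Apoba was at 3.39 and 3.38 in mutants, against 3.42 and 3.48 in wild type. All 4 values of apoba lay within a narrow span, and its log2 fold was -0.026 (SE 0.195, adjusted p = 0.971 over all genes). Apobb.1 was at 3.24 and 3.22 in mutants, against 3.91 and 3.93 in wild type. The mutant values of apobb.1 were both lower, 0.823-fold, with replicates that differed by no more than 0.0089 on the log2 scale. Only 0.267% of the genes without repeated values had closer replicates. The log2 fold of apobb.1 was -0.27 (SE 0.194, adjusted p = 0.645; SE 0.077 and adjusted p = 0.181 among genes without repeated values). After quantile normalization over all genes the log2 fold was -0.52 for apobb.1 and -0.28 for apoba. Both genes lay between the percentiles 93.7 and 94.0 of the mutant libraries and between 95.1 and 95.8 of the wild-type libraries, ranking genes above 0.

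Among the genes of apolipoprotein A-I, the main protein of high-density lipoprotein, the b copy differed and the a copy did not beyond its replicates. Apoa1b was at 1.54 and 1.60 in mutants, against 1.35 and 1.30 in wild type. Its values did not overlap, with a log2 fold of 0.23 (SE 0.190, adjusted p = 0.691; SE 0.084 and adjusted p = 0.252 among genes without repeated values). Apoa1a was at 0.896 and 0.893 in mutants, against 0.867 and 0.911 in wild type, so the mutant values lay between the wild-type ones. The log2 fold of apoa1a was 0.0082 (SE 0.183, adjusted p = 0.991), and its sign turned after quantile normalization, after median centring and without wild-type replicate 1. The value of 0.911 was shared with 42 other genes of that library, which kept apoa1a out of the fit of genes without repeated values.

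Apoa2, another high-density lipoprotein component in mammals, had the largest positive difference of the 10. It was at 1.22 and 1.21 in mutants, against 0.716 and 0.706 in wild type. The mutant values stood near the percentile 73.8 of their library in replicate 1 and 73.3 in replicate 2, against 44.1 and 42.8 in wild type. The lower mutant value was 1.69 times the higher wild-type value, and the difference between genotypes was 39.5 times the larger difference between replicates. That replicate difference holds no replicate error of the mRNA, whereas the difference between genotypes can carry such error. The log2 fold of apoa2 was 0.70 (SE 0.182, adjusted p = 0.349 over all genes). Fitted with the genes without repeated values it was called, with an SE of 0.084 and an adjusted p = 0.0491. Of these genes, 96.3% changed by less in either direction, and of all tested genes 81.3%. The call lay close to the threshold and was lost without any 1 of the 4 libraries (adjusted p = 0.164 to 0.206), with log2 folds between 0.69 and 0.71. It was also lost with the replicate block (adjusted p = 0.098), without trend (0.063) and after quantile normalization (0.053).

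The genes of apolipoprotein A-IV, which the mammalian intestine makes when it absorbs fat, differed in direction. Apoa4b.2 was at 0.744 and 0.652 in mutants, against 1.25 and 1.22 in wild type. Both mutant values of apoa4b.2 were far below both wild-type values, and its log2 fold was -0.75 (SE 0.191, adjusted p = 0.348; SE 0.101 and adjusted p = 0.0557 among genes without repeated values). Of those genes, 97.0% changed by less, and of all tested genes 83.3%. Apoa4b.1 was at 0.832 and 0.867 in mutants, against 0.721 and 0.754 in wild type. Its groups did not overlap, and its log2 fold was 0.18 (SE 0.182, adjusted p = 0.745; SE 0.089 and adjusted p = 0.354 among genes without repeated values). Apoa4a was at 1.45 and 1.40 in mutants, against 2.37 and 1.79 in wild type. The wild-type libraries differed from each other by 0.39 on the log2 scale, the widest gap among the 10 genes, and 3 of the 4 values were repeated. The log2 fold of apoa4a was -0.50 (SE 0.234, adjusted p = 0.517), with -0.30 without wild-type replicate 1 and -0.69 without wild-type replicate 2.

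Apolipoprotein E is the ligand by which remnant particles reach their receptors. Apoea was at 1.78 and 1.83 in mutants, against 1.61 and 1.36 in wild type. Its mutant values were both higher, with a log2 fold of 0.27 (SE 0.205, adjusted p = 0.665) that was 0.16 without wild-type replicate 2 and 0.38 without wild-type replicate 1. Apoeb, which zebrafish macrophages and microglia also express, was at 1.05 and 1.04 in mutants, against 1.17 and 1.06 in wild type. The nearest values of apoeb differed by a ratio of 1.01, and its log2 fold of -0.090 (SE 0.190, adjusted p = 0.886) was smaller than the difference between the wild-type replicates. Of 7 tested macrophage and microglia markers, 1 had a positive and 6 a negative log2 fold, against 51.3% positive of all tested genes, and none passed. Groups lay apart for 1 marker in each direction, against 23.1% above and 21.6% below of all tested genes. The part of these markers in this result was not tested.

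**Figure D3:**
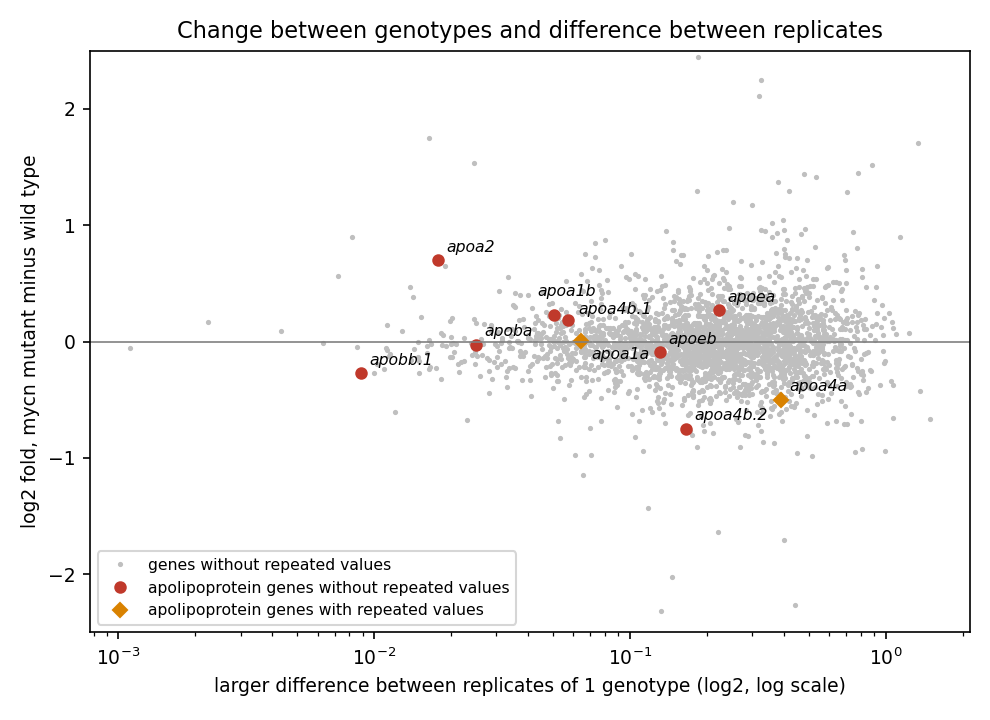
Log2 fold (mycn mutant minus wild type) against the larger of the 2 differences between replicates of a genotype (log2, log axis) for the 2626 genes without repeated values (grey; 3 lie beyond the vertical axis) and the 10 apolipoprotein genes (red circles without, orange diamonds with repeated values). Apoa2 and apobb.1 combine replicate differences of 0.018 and 0.0089 with log2 folds of 0.70 and -0.27.

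The order of the 10 genes differed between genotypes mainly through apoa2 and apoa4b.2, which exchanged places. Apoa2 held rank 6 in mutants and rank 10, the lowest, in wild type. Apoa4b.2 held rank 10 in mutants and rank 6 in wild type. The mutant order was apoba, apobb.1, apoea, apoa1b, apoa4a, apoa2, apoeb, apoa1a, apoa4b.1 and apoa4b.2. The wild-type order was apobb.1, apoba, apoa4a, apoea, apoa1b, apoa4b.2, apoeb, apoa1a, apoa4b.1 and apoa2. In neither genotype did the 2 replicate values of neighbouring genes overlap, although some neighbours were close. In mutants the lower apoa1a value was 0.893 and the higher apoa4b.1 value 0.867, and in wild type the lower apoa4b.1 value was 0.721 and the higher apoa2 value 0.716.

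Comparing related genes within a library removes any scaling that the genes of that library share. Apoa4b.2 had 0.894 and 0.752 times the translation efficiency of apoa4b.1 in mutants, against 1.74 and 1.62 times in wild type, so that the order of these copies differed between genotypes. On the log2 scale this ratio differed by -0.93, against a largest difference between replicates of 0.22. Apobb.1 stood at 0.956 and 0.950 times apoba in mutants, against 1.14 and 1.13 times in wild type, so the order of this pair also turned. The difference of -0.25 on the log2 scale compares with 0.020 between replicates, which holds no replicate error of the mRNA. Apoa1b stood at 1.72 and 1.79 times apoa1a in mutants, against 1.55 and 1.43 times in wild type. Apoeb stood at 0.587 and 0.568 times apoea in mutants, against 0.729 and 0.779 times in wild type. These last pairs kept their order in all 4 libraries. Apoa4b.1 stood at 0.574 and 0.618 times apoa4a in mutants, against 0.304 and 0.423 times in wild type, a ratio that carries the wide wild-type replicates of apoa4a. The groups did not overlap in any of these 5 pairs, nor did they for 9 of the 10 single genes and for 44.8% of all tested genes. No share over other pairs of genes was computed. The exact two-sided permutation test over 2 against 2 libraries gave p = 0.333 for each pair, the smallest value it can give. The labels do not say how reads that fit several copies were assigned.

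**Figure D4:**
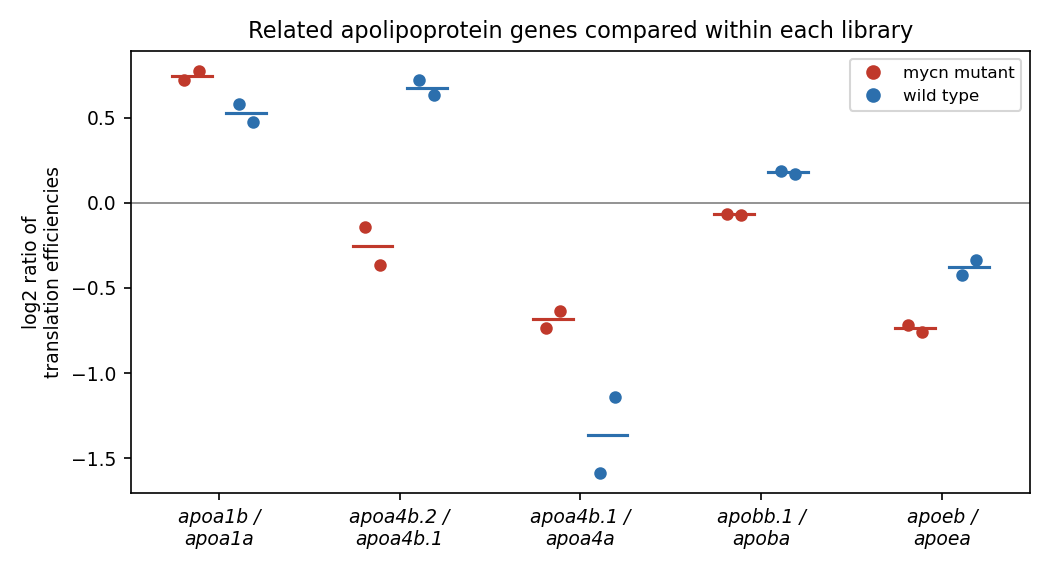
Log2 ratio of translation efficiencies between related apolipoprotein genes within each library (mycn mutant red, wild type blue; short lines are means of 2 libraries; values are log2 ratios after adding 0.1). The ratios apoa4b.2 to apoa4b.1 and apobb.1 to apoba lie below 0 in both mutant libraries and above 0 in both wild-type libraries.

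Directions were mixed along runs of neighbouring genes. In the RefSeq gene table of the GRCz12tu assembly, used here for gene order only and matched by symbol for all 10 genes, a run of 10 protein-coding genes from apoa4b.1 to apoc2 holds 8 apolipoprotein genes. Of the 6 with values, 4 had a positive and 2 a negative log2 fold. In the order of the table these were apoa4b.1 (0.18), apoa4b.2 (-0.75), apoeb (-0.090), apoc1 (0.30), apoa2 (0.70) and apoc2 (0.14). The neighbours apoa4a and apoea differed in sign likewise, at -0.50 and 0.27.

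Taken as a group, the 10 apolipoprotein genes had no shared direction, with 5 positive and 5 negative log2 folds and a median of -0.0090. Over all tested genes the median was 0.013, with 9035 positive and 8566 negative. The median of the size of the change, without its sign, was 0.25 for the 10 genes, 0.16 for the genes without repeated values and 0.30 for all tested genes. The 5 other genes whose values in the 4 libraries were nearest to the median profile of the apolipoprotein genes were fstl1b, rest, reep3b, triqk and atg9b. Their distances, over 4 log2 values, ran from 0.038 to 0.116.

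Of 8 other apolipoprotein genes with values, 5 had a positive and 3 a negative log2 fold, with a median of 0.085, and none passed. Another gene of apolipoprotein B, apobb.2, was at 2.33 and 1.68 in mutants, against 1.89 and 1.90 in wild type, and its groups overlapped. Apom, which is carried on high-density lipoprotein in mammals, was at 1.51 and 1.35 in mutants, against 0.832 and 0.791 in wild type. Its log2 fold of 0.75 (adjusted p = 0.349 over all genes, 0.0557 among genes without repeated values) was close to that of apoa2. Apoc1, a small exchangeable apolipoprotein, was at 1.80 and 1.96 in mutants, against 1.47 and 1.54 in wild type. Apof, known in humans as an inhibitor of lipid transfer between particles, was at 0.388 and 0.252 in mutants, against 0.550 and 0.459 in wild type, with 3 repeated values.

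The machinery that loads and ships apolipoprotein B showed small differences. Of 13 genes of lipoprotein assembly and secretion, 10 had a positive and 3 a negative log2 fold, against 51.3% positive of all tested genes. The median was 0.078, and none passed. Groups did not overlap for 3 of the 13, against 44.8% of all tested genes. The smallest p in this list belonged to tm6sf2, tmem41b and surf4, whose products act in the loading or export of lipoproteins from the endoplasmic reticulum in mammals. Their log2 folds were 0.47 (SE 0.316), 0.44 (SE 0.297) and 0.22 (SE 0.215). The groups of tm6sf2 and tmem41b overlapped, and those of surf4 did not. All 4 values of tm6sf2 were repeated ones, as were 2 each of tmem41b and surf4. The related surf4l had a log2 fold of -0.19, with 2 repeated values. Mttp, the transfer protein that lipidates apolipoprotein B, was named for its role after its values were seen. It was at 1.69 and 1.37 in mutants, against 1.64 and 1.26 in wild type, and the groups overlapped.

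Genes of lipid uptake and of triglyceride and cholesteryl ester synthesis supply the lipid that apolipoprotein B carries. Of 25 tested, 16 had a positive and 9 a negative log2 fold, against 51.3% positive of all tested genes. Their median was 0.20, and none passed. Mogat2, which makes diacylglycerol in enterocytes, was at 2.68 and 4.40 in mutants, against 0.479 and 1.08 in wild type. The sterol exporter abcg5 was at 4.69 and 1.92 in mutants, against 0.730 and 0.330 in wild type. Lpin1, a phosphatidate phosphatase, was at 1.02 and 1.08 in mutants, against 0.600 and 0.589 in wild type. These 3 genes had non-overlapping groups. Of the 25, 11 lay above and 6 below the wild-type values without overlap, against 23.1% and 21.6% of all tested genes. All 4 values of mogat2 and abcg5 were repeated ones, as were 2 of lpin1. Abcg8, also in this list, differed in the other direction. Its log2 fold was -0.92, against 2.38 for abcg5, and its 4 values were repeated too.

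Among 10 tested genes that remodel lipoproteins in plasma, 6 had a positive and 4 a negative log2 fold, with a median of 0.051. The cholesterol exporter abca1b, which passes lipid to apolipoprotein A-I, was at 1.73 and 1.72 in mutants, against 2.16 and 2.19 in wild type. Abcg1, another cholesterol exporter, was at 0.358 and 1.76 in mutants, against 0.091 and 0.247 in wild type. Lcat, which esterifies cholesterol on high-density lipoprotein, was at 0.122 and 0.299 in mutants, against 0.307 and 0.832 in wild type. The values of abcg1 and lcat were all repeated ones, whereas those of abca1b were not.

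Among 21 tested lipoprotein receptors and their regulators, 14 had a positive and 7 a negative log2 fold, against 51.3% positive of all tested genes. Their median was 0.097. Groups lay apart above wild type for 6 and below for 3, against 23.1% and 21.6% of all tested genes. The widest difference was that of lrp2b, a gene of the megalin type of endocytic receptor, at 37.6 and 30.8 in mutants, against 2.88 and 2.101 in wild type. Its adjusted p was 0.126, and 3 of its 4 values were repeated. The log2 fold of lrp2b was 3.74, and that of the related lrp2a was 0.24, with 1 repeated value. Mylipa, whose product marks the low-density lipoprotein receptor for degradation in mammals, had a log2 fold of 0.74 (SE 0.375), and the scavenger receptor stab1 one of 0.47 (SE 0.257). All 4 values of mylipa were repeated ones, whereas those of stab1 were not. Of 21 transcription factors of apolipoprotein genes, 16 had a positive and 5 a negative log2 fold, against 51.3% positive of all tested genes. Their median was 0.17, and 2 of the 21 had no repeated value. Groups lay apart above wild type for 5 and below for 3, against 23.1% and 21.6% of all tested genes. The forkhead factors foxa1 and foxa2, which act in gut and liver, differed in opposite directions. Foxa1 was at 1.03 and 1.27 in mutants, against 0.554 and 0.564 in wild type, and foxa2 at 0.581 and 0.317 in mutants, against 1.09 and 0.773 in wild type. Of the 4 values of foxa1 and of foxa2, 3 each were repeated. The coactivator ppargc1a had a log2 fold of 0.49 (SE 0.203), with all 4 values repeated. No gene of these lists passed.

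**Figure D5:**
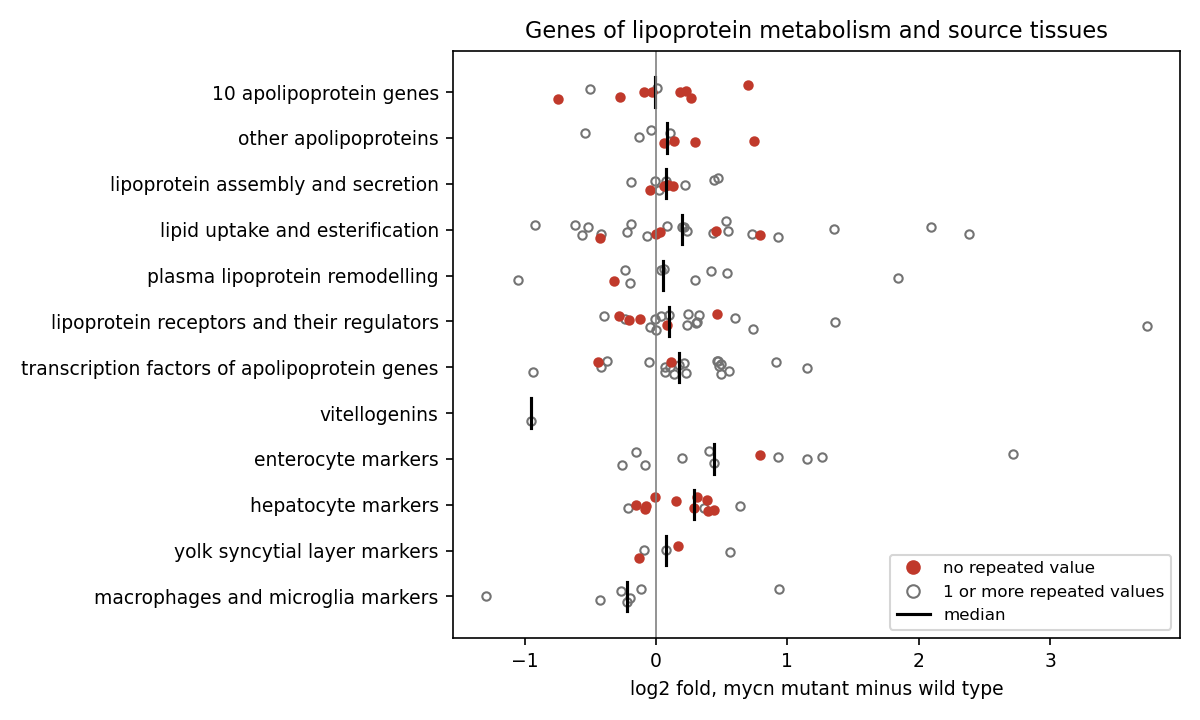
Log2 fold (mycn mutant minus wild type) of each tested gene by list, with filled red points for genes without repeated values, open points for genes with 1 or more, and a black line for the median. The 10 apolipoprotein genes have a median of -0.0090, and enterocyte markers the highest median, 0.44.

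Markers of the tissues that make apolipoproteins were counted in the same way. Of 11 tested enterocyte markers, 8 had a positive and 3 a negative log2 fold, against 51.3% positive of all tested genes. Their median was 0.44. The 8 had both mutant values above both wild-type values, against 23.1% of all tested genes. None lay below without overlap, against 21.6%. The 3 were cldn15a (-0.26), aqp8a.1 (-0.15) and cdx1b (-0.084). Fabp2, fabp1b.1 and plin2 are also in the list of lipid uptake. The median ratio of the 11 markers was 1.39 and 1.66 in mutant libraries, against 0.797 and 0.936 in wild-type libraries. Only 1 of the 11, the intestinal fatty acid binding protein fabp2, had no repeated value, and its log2 fold was 0.79 (SE 0.264). Anpepb, a peptidase of the brush border, was at 1.35 and 1.66 in mutants, against 0.534 and 0.724 in wild type. The chitinase chia.1 was at 5.37 and 2.198 in mutants, against 0.125 and 1.19 in wild type, so its wild-type libraries lay far apart. The peptide transporter slc15a1b, named after its values were seen, was listed at 0 in at least 1 library.

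Of 13 tested hepatocyte markers, 7 lay above and 4 below the wild-type values without overlap, against 23.1% and 21.6% of all tested genes, and the median was 0.29. For genes without repeated values, which 10 of the 13 are, these shares were 22.7% and 29.1%. With 4 more that were listed at 0 in some library, the median was 0.17. The median ratio was 1.03 and 1.08 in mutant libraries, against 0.861 and 1.02 in wild-type libraries. Among them were the fibrinogen chain fgg (log2 fold 0.64, SE 0.198), the protease inhibitor serpina1 (0.45, SE 0.188) and transferrin, tfa (0.39, SE 0.182). Of the fgg values, 2 were repeated, whereas serpina1 and tfa had no repeated value. The log2 fold was negative for 5 of the 13, namely cp (-0.21), c3a.1 (-0.15), serpina1l (-0.084), fga (-0.072) and c9 (-0.0091). Of 5 tested yolk syncytial layer markers, 2 did not overlap, close to the 44.8% of all tested genes, and the median was 0.078. These were afp4 (0.57, SE 0.203) and the protease ctsla (0.17, SE 0.185), and the iron exporter slc40a1 (-0.13, SE 0.201) overlapped. All 4 values of afp4 were repeated ones, whereas ctsla and slc40a1 had no repeated value. Among macrophage markers mpeg1.1 was at 0.556 and 0.228 in mutants, against 1.11 and 0.967 in wild type, and p2ry12 at 1.04 and 2.56 in mutants, against 0.695 and 0.944 in wild type. The mutant libraries differed widely for both, and all 4 values of each were repeated ones. The log2 fold of ctss2.2 was -0.27 (SE 0.260), with overlapping groups and 2 repeated values. Of the vitellogenins, the yolk precursors, only vtg7 was above 0 in all libraries, at 1.71 and 2.098 in mutants, against 4.26 and 3.30 in wild type, all of them repeated values. The others in the table, vtg1 and vtg5, were listed at 0 in at least 1 library and are given no fold. None of these markers passed over all genes, and their part in the differences of the apolipoprotein genes was not tested.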

How the data were processed

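The authors deposited 1 ratio per gene and Ribo-seq library, its translation efficiency, computed from FPKM values per the file headers. The RNA-seq sample used as denominator is not given in the sources analysed. The genome build was GRCz11 and the tools included STAR and featureCounts, per the submitters' processing notes. Columns were assigned to samples by title. The 10 genes and all gene lists were chosen with earlier results of these data known.

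The 17601 genes above 0 in all 4 libraries were fitted with limma (version 3.58.1, R 4.3.3) on log2(ratio + 0.1), with an empirical Bayes trend, mutant minus wild type. The test was two-sided at a Benjamini-Hochberg adjusted p of 0.05 over all genes. A fold on this scale understates the change of low ratios. There were 2 residual degrees of freedom per gene. The same fit was run on the 2626 genes without a value repeated to 9 digits. Ratios between genes used an exact permutation test (scipy 1.17.1). The limma fit of all genes was tested on simulated data with known shifts. The fit of the 2626 genes and the permutation test were not. The simulated noise was independent between libraries, with no mRNA error shared within a genotype and no repeated values. The simulation therefore could not check the p-values against those limits. Alternatives were other pseudocounts, filters and scalings, a fit without trend, a replicate block and leaving out each library. Named genes were all 10, mycn, the 5 nearest profiles and the 3 smallest p of each list. Mttp, slc15a1b, apobb.2, apoc2, vtg1 and vtg5 were named after their values were seen. So were abcg8, surf4l, lrp2a, cldn15a, aqp8a.1, cdx1b, fabp1b.1, plin2, cp, c3a.1, serpina1l, fga and c9.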

Additional observations from a re-analysis of the deposited data

How the results depend on the processing

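No gene was called over all genes, with 2023 at an unadjusted p under 0.05. This count was 6 with a pseudocount of 1, 177 without a filter on zeros, 2 with a mean ratio of at least 0.2, 36 among genes without repeated values, and 0 without any 1 library. Further fits of genes without repeated values were chosen after seeing the data. They called 20 genes with the replicate block, 22 without trend, 28 after quantile normalization, 40 after median centring, 40 with a pseudocount of 1, 38 with one of 0.01, and 14, 11, 18 and 21 without mutant replicate 1, mutant replicate 2, wild-type replicate 1 and wild-type replicate 2. In these fits the adjusted p of apoa2 ran from 0.043 to 0.206 and that of apoa4b.2 from 0.053 to 0.206; apoa2 lost its call without 1 library, with the block, without trend (0.063) and after quantile normalization (0.053).

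The median log2 fold of the 10 genes, near 0 in every fit, was -0.082 after quantile normalization, -0.035 after median centring and -0.024 to 0.013 without 1 library. Over the 8 genes without repeated values it was 0.078, also with the block and without trend, 0.062 after quantile normalization, 0.112 after median centring, 0.035 and 0.087 with pseudocounts of 1 and 0.01, and 0.091, 0.065, 0.064 and 0.072 without the same libraries in that order. In 4 fits a gene's sign turned. The log2 fold of apoa1a turned to -0.024 after quantile normalization, -0.017 after median centring, and -0.024 when wild-type replicate 1 was left out (0.040 when wild-type replicate 2 was), and that of apoba to 0.0087 after median centring of genes without repeated values. These were the sign changes among 208 log2 folds of single genes. With a pseudocount of 1 the log2 folds of apoa2 and apoa4b.2 were 0.37 and -0.40. Adding a larger constant to both sides of a comparison shrinks its log2 fold. The cause of the other shifts was not tested.

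With the replicate number as a block no gene was called over all genes, and the adjusted p of apoa2 was 0.449, or 0.098 among genes without repeated values. Samples with the same number showed little shared deviation (correlation across genes 0.0097, or 0.025 among genes without repeated values). Noise of single genes can hide a shared effect, so these values do not show whether the numbers pair the samples. With zeros kept, the median log2 fold was 0.17 for hepatocyte markers. For the 3 vitellogenins, of which 2 were listed at 0 in some library, no such median is given. It would fall on a gene with a 0 and depend on the added 0.1. The ratios between related genes kept their direction without a pseudocount.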
